A study of Homo sapiens with 4 samples.

Results

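Proteasome genes were examined in LCC9 cells, a tamoxifen-resistant human breast cancer line with wild-type estrogen receptor alpha, after 24 h with A7 or with its vehicle, DMSO. The members were all lines of the deposited tables whose symbol is PSMA, PSMB, PSMC, PSMD, PSME, PSMF or PSMG followed by a number. The choice was by name, with earlier results of these data known. It gave 48 of 23605 symbols, namely 8 PSMA, 11 PSMB, 6 PSMC, 14 PSMD, 4 PSME, 1 PSMF and 4 PSMG genes. Of these, 46 had a mean of 1 FPKM or more (fragments per kilobase of transcript, scaled to the mapped fragments of the library) and were tested. The other 2, PSMA8, the testis-specific alpha subunit, and PSMB11, the thymus-specific beta subunit, were listed at 0 in all 4 libraries. Each group had 2 libraries, and both groups grew in medium without phenol red that held 5% charcoal-stripped serum, which is poor in estrogen. A7 is called a BRCA1 mimetic in the labels and is given here by its code name only. Its dose is not given in the sources used here. Whether replicate libraries stem from separate cultures is not stated, and p-values therefore reflect only how these libraries vary, which may be technical.

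The proteasome is the barrel-shaped protease of the cytosol and nucleus that degrades proteins tagged with ubiquitin. Its core particle is a stack of rings, with PSMA (alpha) subunits outside, which gate the entrance, and PSMB (beta) subunits inside, of which PSMB5, PSMB6 and PSMB7 carry the active sites. In cells exposed to interferon, PSMB8, PSMB9 and PSMB10 take the places of these subunits and form the immunoproteasome, which favours peptides for MHC class I. The regulatory particle caps the core with a ring of ATPases (PSMC) and with the PSMD subunits, which bind ubiquitin and remove it. PSME proteins are activators that cap the core without ATP, PSMF1 (PI31) binds the core, and PSMG proteins are chaperones that build the alpha ring. Transcription of proteasome genes as a whole is known to be raised by NFE2L1 through antioxidant response elements when proteasome activity is limiting, and the inducible subunits respond to interferon through IRF and STAT factors.

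The promoter sequences that hold these elements are shown first, since the levels below divide the catalytic subunits into abundant standard and scarce interferon-inducible ones. RefSeq promoters (GRCh38.p14, 250 bases before to 50 after a gene's start) matched 42 of the 48 members by symbol. PSMA7, PSMB1, PSMB6, PSMB7, PSMD4 and PSMG3 had no entry. The IRF-type motif, GAAA, any 2 bases and again GAAA, searched on both strands, was in a promoter of 7 members (16.7% of 42), and 4.38% of all genes in the table held it (3.57% of all promoters). Of the 7, PSMB8, PSMB10, PSME1 and PSME2 are interferon-inducible, and the match lay within 28 bases of the listed start in all 4. PSMB9, also inducible, had no match in its promoter. Their windows of 30 bases follow, 5′ to 3′ on the gene's strand, with the motif or its reverse complement in capitals.
PSMB8, chr6:32844032-32844061, minus strand: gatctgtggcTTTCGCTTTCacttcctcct
PSMB10, chr16:67936852-67936881, minus strand: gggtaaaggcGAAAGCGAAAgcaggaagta
PSME1, chr14:24136189-24136218, plus strand: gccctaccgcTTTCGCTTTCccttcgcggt
PSME2, chr14:24146619-24146648, minus strand: cctggggagtGAAAGCGAAAgcccgggcga
These 4 matches spell the same 10 letters, GAAAGCGAAA, on a given strand. PSMG4 holds them as well (chr6:3258904-3258933, plus strand, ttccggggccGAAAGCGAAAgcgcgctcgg), whereas PSMA4 and PSMB4 hold other spellings of the motif.

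The core of the antioxidant response element, TGACNNNGC on either strand, was in promoters of 15 members (35.7% of 42), and 16.1% of all genes in the table held it (13.3% of all promoters). The match of the most abundant holder in each of PSMA to PSMD is shown, as examples from the core and the regulatory particle.
PSMA4, chr15:78540650-78540679, plus strand: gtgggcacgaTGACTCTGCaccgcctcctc
PSMB3, chr17:38752627-38752656, plus strand: gcctccgtttTGACTTTGCaaccaaactac
PSMC5, chr17:63827654-63827683, plus strand: gaccggatctGCTGTGTCAgcgccgccctc
PSMD12, chr17:67366723-67366752, minus strand: agacaaaaccTGACGCTGCaggctggagtg
The CCAAT box, the site of the factor NF-Y, was in promoters of 20 members (47.6%), against 39.7% of all genes in the table. A match is a string of letters and not evidence of binding, and no binding was measured here.

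Sequencing was shallow, with roughly 2300000 fragments in each vehicle library, 4300000 in A7 replicate 1 and 3200000 in A7 replicate 2, as estimated from the steps of low values. Values called scaled FPKM are FPKM divided by a factor per library (0.990 to 1.02). Pairs of values are given as vehicle replicates 1 and 2 against A7 replicates 1 and 2, and a log2 difference is A7 minus vehicle on log2(scaled FPKM + 1). All 8 markers of luminal breast epithelium were tested (summed FPKM of 927 to 1153 with vehicle and 787 to 1006 with A7), with KRT19, KRT18 and GATA3 the most abundant, whereas the basal keratins KRT5, KRT14 and KRT17 and the leukocyte genes PTPRC and CD3E were listed at 0 in all libraries. The 6 fibroblast markers summed to 0.417 and 0.427 FPKM with vehicle and to 9.92 and 0.860 with A7, mostly DCN at 8.40 scaled FPKM in A7 replicate 1, and their part in the results was not tested. Over all 8952 tested genes, 2 (0.0223%) passed at a limma adjusted p under 0.05, and 516 (5.76%) had an unadjusted p under 0.05.

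No proteasome gene passed the limma test over all genes, and the smallest adjusted p among the 46 was 0.806. PSMB5 alone had an unadjusted p under 0.05 (1 of 46, against 5.76% of all tested genes, or 3.55% with lower values as in PSMB5). Means were lower with A7 for 35 members and higher for 11, where 50.3% of all tested genes had lower means. When FPKM were rescaled to TPM, in which every library sums to the same total, the split was 14 lower and 32 higher. That rescaling put the all-gene median at 0.17, and relative to it 35 members were again below and 11 above. Each single gene described below as positive with TPM was still under that all-gene median, whereas the PSMD class median, 0.24 with TPM, was above it. After quantile normalization the split was 27 and 19. The median log2 difference of the 46 was -0.17, beside -0.0019 over all tested genes, and it was 0.051 with TPM (-0.12 relative to the shift) and -0.029 after quantile normalization. In bulk RNA, fewer cells that express a gene and less RNA per cell cannot be told apart. In 17 members every A7 value lay below every vehicle value, and in 1, PSMD9, every A7 value lay above. Such separation was seen in 18.6% of all tested genes in the lower and in 18.3% in the higher direction, 36.9% in all. At a mean of 100 scaled FPKM or more, every A7 value lay below in 12 of 23 members and in 347 of all 714 tested genes.

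**Figure D1:**
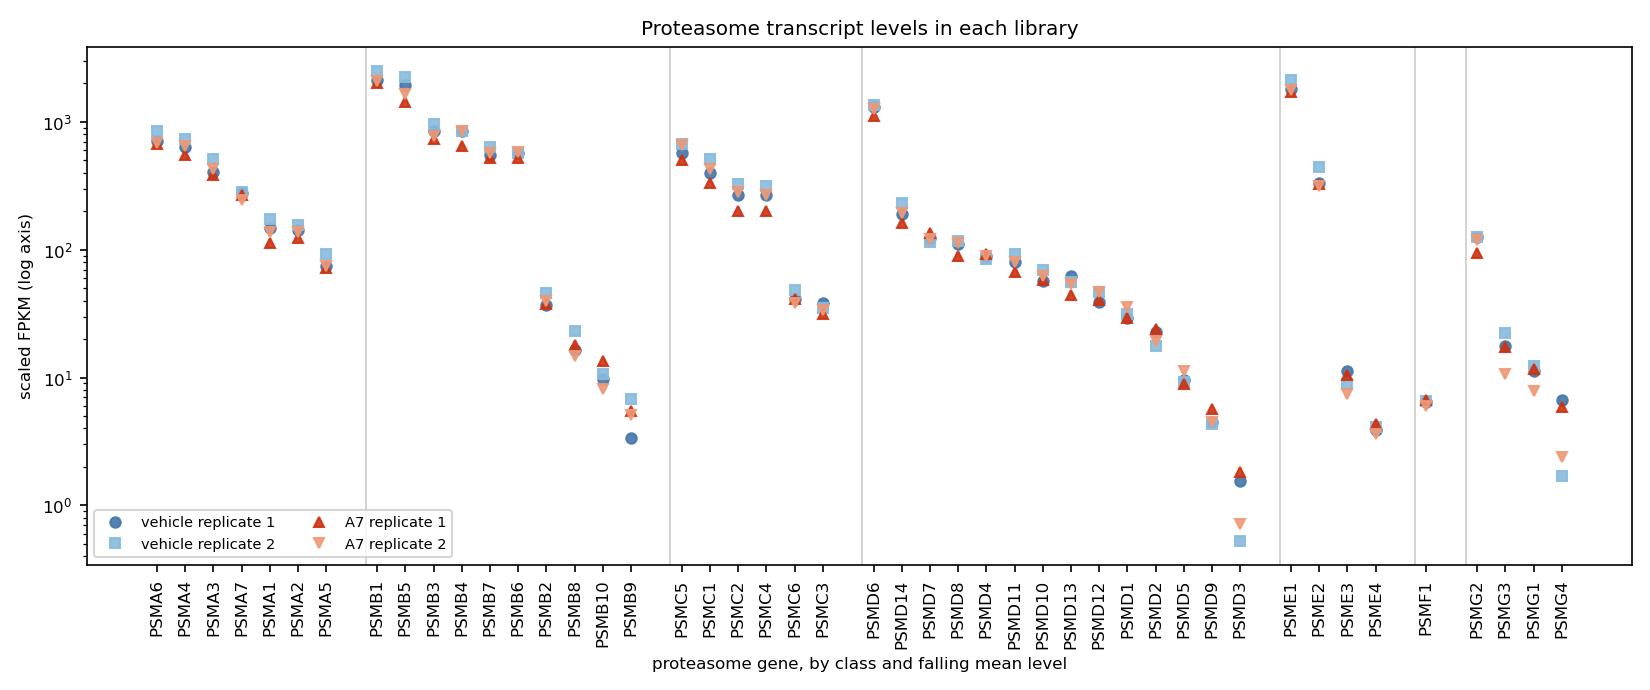
Scaled FPKM (log axis) of the 46 tested proteasome genes in each of the 4 libraries, by class and falling mean level; circles and squares are vehicle replicates 1 and 2, upward and downward triangles A7 replicates 1 and 2. Levels run from PSMD3 at 1.16 to PSMB1 at 2193, and within a gene the points of the 4 libraries spread most in PSMG4, PSMD3, PSMG3 and PSMB9.

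The spread between single libraries was shared by many members. Vehicle replicate 2 had the highest value of the 4 libraries in 28 of the 46 genes, and A7 replicate 1 the lowest in 26. These are 60.9% and 56.5% of the members, against 29.9% and 25.3% of all tested genes and 70.6% and 51.1% of the 714 tested genes with a mean of 100 scaled FPKM or more. The remaining pair, vehicle replicate 1 and A7 replicate 2, differed by a median absolute log2 difference of 0.101 over the 46 genes. That was less than the 0.220 between the vehicle replicates and the 0.225 between the A7 replicates. The largest such difference, 0.328, was between vehicle replicate 2 and A7 replicate 1. For the same pairs in this order, the 714 tested genes at 100 scaled FPKM or more gave 0.151, 0.164, 0.162 and 0.286. All tested genes gave 0.213, 0.224, 0.201 and 0.257. Without vehicle replicate 2 the median difference of the members was -0.061, and without vehicle replicate 1 it was -0.23 (38 lower means of 46). All proteasome genes together accounted for 1.17% and 1.21% of the FPKM total in the vehicle libraries and for 1.12% and 1.28% in the A7 libraries. The groups overlapped in this share (exact two-sided permutation p = 1, where 2 against 2 libraries cannot give less than 0.33).

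The alpha subunits of the core shared a direction on the main scaling. All 7 tested PSMA genes had lower means with A7 (median -0.19), and groups did not overlap in 5. With TPM the median was 0.036, or -0.14 relative to the all-gene shift. Of all tested genes, 50.3% had lower means on the main scaling and 18.6% lay lower without overlap. Among the 714 tested genes with a mean of 100 scaled FPKM or more, 598 had lower means and 347 lay lower without overlap. All tested PSMA genes but PSMA5 were at that level. PSMA1 had the smallest unadjusted p of the class. Its scaled FPKM were 147 and 173 in the vehicle libraries against 112 and 137 in the A7 libraries, 1.29-fold lower by the means, 160 ± 18.1 and 124 ± 17.5 (SD, n = 2 each). Its log2 difference was -0.37 (SE 0.16, 95% interval -0.76 to 0.03, limma adjusted p = 0.806). Both A7 libraries of PSMA1 thus lay under both vehicle libraries, by 10.8 FPKM at the nearest pair.

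PSMA6 was the most abundant alpha subunit, at 707 and 847 with vehicle and 673 and 681 with A7, where the vehicle replicates lay farther apart than vehicle replicate 1 and the A7 libraries. PSMA5 was the least abundant, at 75.0 and 92.8 against 72.5 and 74.4, again with only vehicle replicate 2 apart. PSMA4 averaged 642, PSMA3 431, PSMA7 269, PSMA1 142 and PSMA2 140 over the 4 libraries. The span from PSMA6 to PSMA5 was 9.24-fold, although each alpha subunit occupies the same number of places in the ring. Reads of PSMA6 may be shared with its processed pseudogene PSMA6P1, whose transcript matches it at 97.7% identity.

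The beta subunit PSMB5, which carries the chymotrypsin-like activity and is the main target of bortezomib, had the smallest p of all members. Its scaled FPKM were 1933 and 2266 in the vehicle libraries against 1421 and 1659 in the A7 libraries. Both A7 libraries were below both vehicle libraries, and the means, 2099 ± 235 and 1540 ± 168 (SD, n = 2 each), differed 1.36-fold. The log2 difference was -0.45 (SE 0.14, 95% interval -0.80 to -0.09, limma unadjusted p = 0.0213 and adjusted p = 0.806). Its direction held under all 11 alternatives of the fit, of which no filter, no trend and the replicate block cannot change it. The log2 difference was -0.22 both with TPM and after quantile normalization. The unadjusted limma p was no longer under 0.05 with either or without the trend. With 1 library left out, the log2 difference ranged from -0.56 without vehicle replicate 1 to -0.33 without vehicle replicate 2 or without A7 replicate 1. The value rests on an estimated 5767 to 7827 fragments per library.

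PSMB6, with the caspase-like activity, had nearly equal means, 568 ± 0.486 and 549 ± 43.4 (SD, n = 2 each). Its libraries stood at 567 and 568 with vehicle and at 518 and 579 with A7, so the groups overlapped. PSMB7, with the trypsin-like activity, stood at 548 and 634 against 520 and 572, also with overlap. The log2 differences were -0.05 (SE 0.12) and -0.11 (SE 0.13), and both were positive with TPM and after quantile normalization. PSMB5 was thus 3.52 and 3.57 times as abundant as PSMB7 in the vehicle libraries and 2.73 and 2.90 times in the A7 libraries, a ratio chosen after the values were seen. The groups did not overlap in this ratio, and its exact two-sided permutation p = 0.33 is the smallest that 2 against 2 libraries allow.

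Of the structural beta subunits, PSMB1 was the most abundant member of all, at 2146 and 2523 with vehicle and 2010 and 2092 with A7. Its groups did not overlap, but the difference of -0.18 (SE 0.13) became positive with TPM and after quantile normalization. PSMB3 stood at 845 and 960 against 734 and 770, with a difference of -0.26 (SE 0.12, limma adjusted p = 0.806). PSMB4 averaged 801 over the 4 libraries and PSMB2, the least abundant standard beta subunit, 40.0, and both had overlapping groups. Over the 14 standard core genes, PSMA1 to PSMA7 and PSMB1 to PSMB7, all 14 means were lower with A7, 3 of them with TPM and 9 after quantile normalization. Relative to the all-gene median, 14 were lower with TPM and 10 after quantile normalization. Without vehicle replicate 2 or without A7 replicate 1, 13 were lower. Vehicle replicate 2 was highest in 12 of the 14 and A7 replicate 1 lowest in 12.

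**Figure D2:**
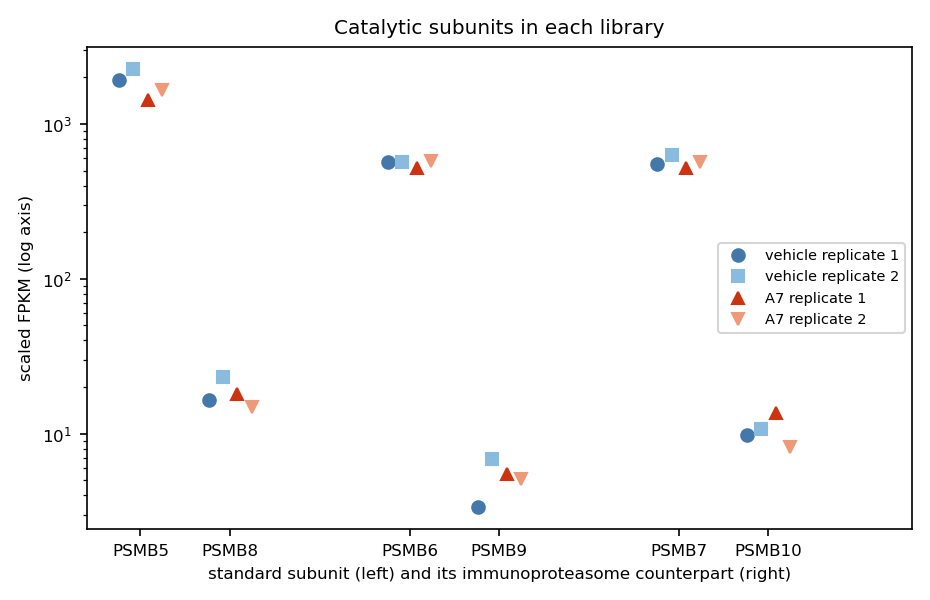
Scaled FPKM (log axis) of the standard catalytic subunits and their immunoproteasome counterparts in each library, with circles and squares for vehicle and triangles for A7. PSMB5 is lower in both A7 libraries (1421 and 1659) than in both vehicle libraries (1933 and 2266), whereas the libraries of the 2 groups overlap in the other 5 genes, and each counterpart lies far below its standard subunit.

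Immunoproteasome subunits were present at low levels in all 4 libraries, and the groups overlapped in each. PSMB8, the counterpart of PSMB5, stood at 16.5 and 23.3 with vehicle and at 18.1 and 14.8 with A7. PSMB9, that of PSMB6, stood at 3.35 and 6.81 against 5.48 and 5.08, resting on some 6 to 18 fragments per library. PSMB10, that of PSMB7, stood at 9.72 and 10.7 against 13.5 and 8.16. No group stood apart from the other in any of these genes. The log2 differences were -0.25 (SE 0.21), 0.11 (SE 0.30) and 0.04 (SE 0.25). Those of PSMB9 and PSMB10 turned negative without vehicle replicate 1 (-0.32 and -0.028), and PSMB10 also without A7 replicate 1 (-0.29). That of PSMB8 was -0.0075 without vehicle replicate 2, -0.49 without vehicle replicate 1, -0.39 without A7 replicate 1 and -0.11 without A7 replicate 2.

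As a share of the 6 catalytic transcripts, the 3 inducible subunits made up 0.962% and 1.16% with vehicle and 1.49% and 0.988% with A7. Group means of this share, 1.06% ± 0.14 and 1.24% ± 0.35 (SD, n = 2 each), lay close, the groups overlapped, and the exact two-sided permutation p = 0.667. PSMB8 was 0.856% and 1.03% of PSMB5 with vehicle and 1.28% and 0.893% with A7. PSMB9 was 0.590% and 1.20% of PSMB6 against 1.06% and 0.878%, and PSMB10 1.77% and 1.69% of PSMB7 against 2.60% and 1.43%. The standard subunits therefore exceeded their counterparts by a wide margin in every library of both groups. Because exons of PSMB8 and PSMB9 overlap each other or the antisense gene PSMB8-AS1 and no strand-marking step is named in the labels, reads in those stretches cannot be told apart.

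The partners of the immunoproteasome in antigen presentation did not share a direction that could be shown. Of 13 listed genes 9 were tested, 0 passed (limma over all genes; 1 had an unadjusted p under 0.05), 7 had lower and 2 higher means, and the median difference was -0.09. IRF1, a transcription factor of the interferon response, stood at 1.51 and 1.41 against 0.549 and 0.702 (log2 difference -0.60, SE 0.23, limma adjusted p = 0.806), without overlap, on an estimated 13 and 12 against 8 and 8 fragments. TAPBP, which loads peptides onto MHC class I, stood at 42.6 and 37.0 against 47.5 and 47.2. Both A7 libraries of TAPBP lay above both vehicle libraries, the opposite side from IRF1.

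ATPase genes of the regulatory particle had the largest gap between vehicle replicate 2 and A7 replicate 1, with a median absolute log2 difference of 0.522, against 0.239 and 0.376 within the groups and 0.110 between vehicle replicate 1 and A7 replicate 2. Vehicle replicate 2 and A7 replicate 1 were also the farthest pair over all tested genes (0.257) and over those at 100 scaled FPKM or more (0.286). All 6 PSMC genes had lower means with A7, 3 of them with TPM and 5 after quantile normalization. Relative to the all-gene shift, the PSMC median with TPM was -0.17. Leaving out vehicle replicate 2 or A7 replicate 1 also left 5. The median difference was -0.21, and the groups did not overlap in 3, lower with A7 in each. Such separation was seen in 18.6% of all tested genes. It was seen in 347 of the 714 with a mean of 100 scaled FPKM or more and in 1315 of the 8238 under 100. Of the 3 separated ATPase genes, PSMC4 was above that level and PSMC6 and PSMC3 were under it. PSMC4 stood at 268 and 316 against 199 and 266 (log2 difference -0.34, SE 0.18, limma adjusted p = 0.806). The lowest vehicle library and the highest A7 library of PSMC4 were 1.76 FPKM apart, so the separation is narrow.

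PSMC2 stood at 270 and 329 against 202 and 285, where A7 replicate 2 lay between the vehicle libraries. PSMC5 was the most abundant ATPase, at 570 and 673 against 506 and 662, and its difference of -0.10 (SE 0.17) was positive with TPM and after quantile normalization. It was also positive when vehicle replicate 2 (0.029) or A7 replicate 1 (0.098) was left out. PSMC3 was the least abundant, at 38.3 and 35.0 against 31.2 and 33.9, 17.4-fold below PSMC5 by the means of all libraries. The 6 ATPases form a single ring with 1 copy of each. PSMC1 averaged 419, PSMC2 271, PSMC4 262 and PSMC6 42.5 over the 4 libraries. PSMC1 matches the processed pseudogene PSMC1P1 at 100% identity over a stretch as long as 84.0% of a PSMC1 transcript, and PSMC6 a pseudogene at 99.0%, so the authors' counting may have split their reads. Exons of PSMC1 also overlap those of NRDE2 on the opposite strand, a gene listed at 1.00 to 1.28 scaled FPKM.

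PSMD genes, the non-ATPase part of the regulatory particle, had no common direction. Of 14 tested, 6 had lower and 8 higher means, and the median was 0.05 (0.06 relative to the shift with TPM). This median was negative whenever 1 library was left out: -0.033 and -0.016 when it was vehicle replicate 1 or 2, and -0.00030 and -0.071 when it was A7 replicate 1 or 2. Of the 8 lid genes 5 had lower means (median -0.16). The 3 PSMD genes of the base, PSMD1, PSMD2 and PSMD4, hold some of the particle's ubiquitin and shuttle-factor binding sites. All 3 had higher means (median 0.09), with overlap of the groups in each. The 6 PSMC genes, also of the base, all had lower means. ADRM1, a base protein named otherwise and added after its values were seen, stood at 11.7 and 10.3 against 7.14 and 9.84, lower without overlap. With TPM 3 of the 14 PSMD means were lower, and after quantile normalization 5. Whether the lid genes and the PSMD genes of the base differed was not tested.

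PSMD6, a lid subunit, was the most abundant, at 1305 and 1357 with vehicle and 1120 and 1270 with A7, without overlap, and its difference of -0.16 (SE 0.12) was positive with TPM. Its exons overlap PSMD6-AS1 and PSMD6-AS2 on the opposite strand. PSMD6-AS2 had scaled FPKM of 2.13 and 1.58 against 3.84 and 3.39, far below PSMD6. The lid gene PSMD13 stood at 62.7 and 55.5 against 44.3 and 54.4 (log2 difference -0.26, SE 0.16, limma adjusted p = 0.806), with 1.06 FPKM between the groups. PSMD14, the deubiquitinase that removes ubiquitin from substrates, stood at 191 and 231 against 163 and 193, with overlap.

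PSMD3, another lid subunit, was the least abundant tested member, with scaled FPKM of 1.56 and 0.525 against 1.84 and 0.710. The first replicate of each group was well above the second, and the groups overlapped. These values rest on an estimated 8, 3, 17 and 5 fragments, and the log2 difference was 0.16 (SE 0.37, 95% interval -0.76 to 1.08). Leaving out either vehicle replicate 2 or A7 replicate 1 made it negative (-0.21 in both cases). PSMD3 was 1091-fold below PSMD6 by the means of all libraries. Of the chaperones that assemble the base, PSMD9 stood at 4.50 and 4.31 with vehicle and at 5.66 and 4.51 with A7, where the nearest libraries of the 2 groups differed by 0.00904 FPKM. PSMD5 averaged 9.73 and PSMD10 (gankyrin) 61.5 over the 4 libraries, both with overlap. PSMD4, the ubiquitin receptor, averaged 86.8 ± 3.31 and 90.8 ± 3.03 (SD, n = 2 each), and the retrogene PIPSL, whose transcript matches PSMD4 at 97.8% identity, was itself listed at 14.3 and 14.7 with vehicle and at 17.6 and 17.3 with A7.

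**Figure D3:**
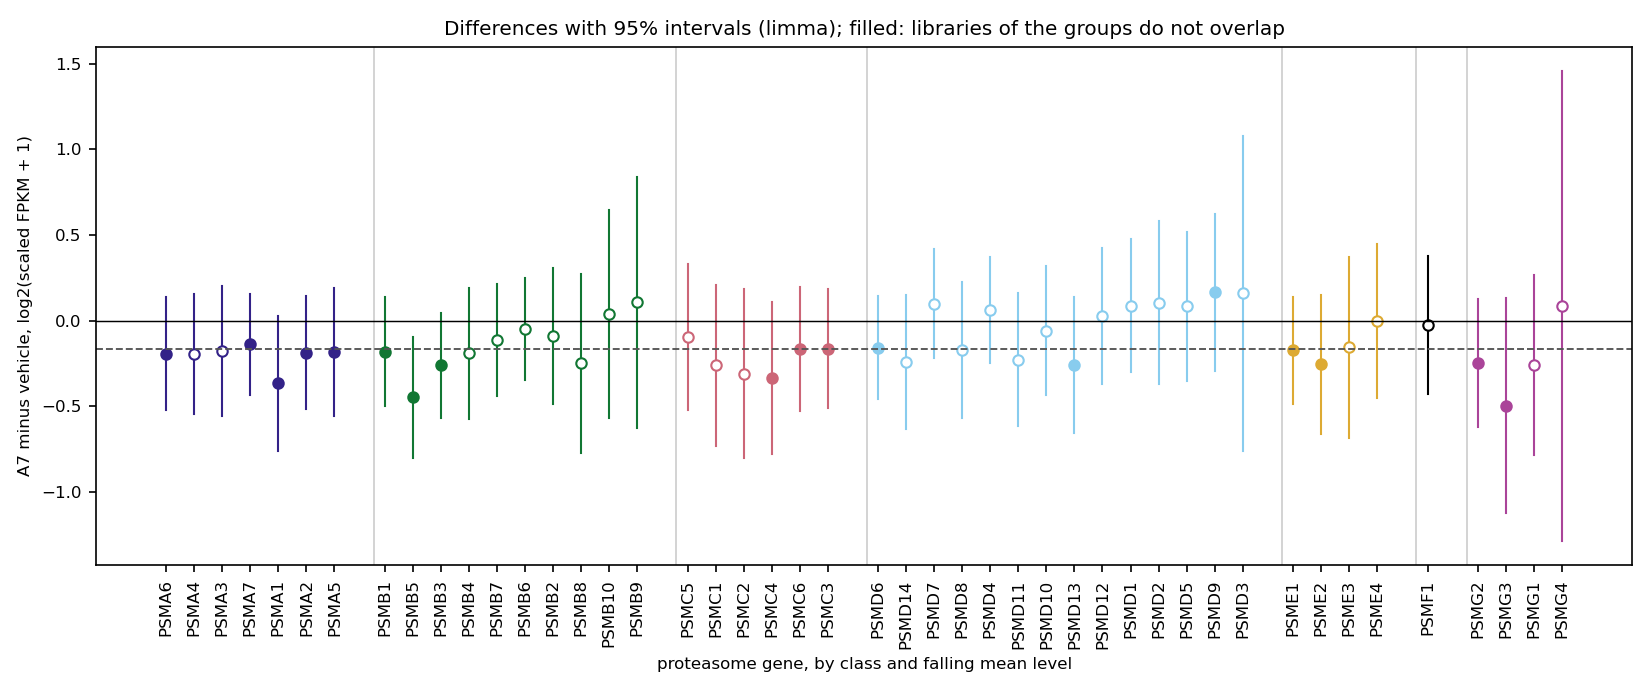
Log2 difference (A7 minus vehicle, on log2(scaled FPKM + 1)) of each tested proteasome gene with its 95% limma interval; filled points have no overlap between the libraries of the groups, and the dashed line is the members' median of -0.17, which is 0.051 with FPKM rescaled to TPM. Only the interval of PSMB5 leaves out 0, before adjustment over all genes and not with TPM, quantile normalization or no trend. With 1 library left out, the PSMB5 difference ranged from -0.56 to -0.33. The intervals of PSMG4 and PSMD3 are the widest.

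Among the activators, the interferon-inducible pair PSME1 and PSME2 (PA28 alpha and beta), which form a ring together, was abundant. PSME1 stood at 1820 and 2119 with vehicle and at 1705 and 1776 with A7, and PSME2 at 334 and 443 against 329 and 316. Neither pair of groups overlapped, but in both genes vehicle replicate 1 lay closer to the A7 libraries than to vehicle replicate 2. The log2 differences were -0.17 (SE 0.13) and -0.25 (SE 0.16), that of PSME1 positive with TPM and after quantile normalization. The ratio of PSME1 to PSME2 was 5.45 and 4.78 with vehicle and 5.18 and 5.62 with A7, with overlap (exact two-sided permutation p = 0.667). PSME2 shares near-identical sequence with the pseudogene PSME2P2 (97.2%), so reads may be shared between them. Exons of PSME1 overlap EMC9 and those of PSME2 overlap RNF31, both on the opposite strand, and these genes averaged 12.3 and 1.30 scaled FPKM.

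PSME3 (PA28 gamma), the nuclear activator, was much less abundant, at 11.2 and 8.96 with vehicle and 10.5 and 7.50 with A7. Here too the first replicate of each group was above the second. PSME4 (PA200), the largest activator, stood at 3.88 and 4.13 against 4.36 and 3.65, and its log2 difference was nearly 0 (-0.0033, SE 0.18, 95% interval -0.45 to 0.45). PSMF1 stood at 6.44 and 6.52 against 6.67 and 6.05 (log2 difference -0.03, SE 0.16, 95% interval -0.43 to 0.38). These intervals show how large a change could have gone unseen in both genes.

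Assembly factors of the alpha ring differed in how well their replicates agreed. PSMG3 had the largest log2 difference of any member, -0.50 (SE 0.26, 95% interval -1.12 to 0.13, limma adjusted p = 0.806). Its scaled FPKM were 17.6 and 22.2 against 17.5 and 10.8. A7 replicate 1 was only 0.118 FPKM below vehicle replicate 1, and without A7 replicate 2 the difference was -0.16. PSMG2, the partner of PSMG1, stood at 127 and 126 against 94.9 and 119, also without overlap (log2 difference -0.25, SE 0.15). PSMG1 stood at 11.3 and 12.2 against 11.8 and 7.92, and its difference of -0.26 became 0.0037 without A7 replicate 2.

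PSMG4 was the least reproducible member, at 6.70 and 1.71 against 5.93 and 2.40. The first replicates of both groups were high and the second low, as in PSMD3, and the group means, 4.21 ± 3.53 and 4.16 ± 2.50 (SD, n = 2 each), were nearly equal. Its exons overlap those of SLC22A23 on the opposite strand, which was listed at 0.152 to 0.374 scaled FPKM. POMP, the chaperone of the beta ring, is named otherwise and stood at 471 and 517 against 417 and 484, far above the 4 PSMG genes, of which PSMG2 was the most abundant at 117 over the 4 libraries.

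Of 19 listed symbols for other proteasome proteins and regulators, 15 were tested, 0 passed (limma over all genes; 1 had an unadjusted p under 0.05), 8 had lower and 7 higher means, and the median was -0.04. AKIRIN2, which carries proteasomes into the nucleus, had scaled FPKM of 5.44 and 4.41 against 3.44 and 3.11 (log2 difference -0.47, SE 0.19, limma adjusted p = 0.806). Its values rest on an estimated 21 and 17 against 24 and 17 fragments. TXNL1, a redox protein bound to the regulatory particle, stood at 27.3 and 31.9 against 21.0 and 25.3, and PAAF1, a chaperone of the ATPases, at 51.5 and 43.0 against 35.2 and 41.7. Groups did not overlap in any of these, with both A7 libraries the lower. Among all tested genes, 18.6% lay apart with lower and 18.3% with higher values. In the list as a whole, groups were apart in 5 of 15 tested genes with lower and in 2 with higher values. The latter, named after their values were seen, were NGLY1, which activates NFE2L1 (2.84 and 4.74 against 5.03 and 5.53), and the deubiquitinase USP14 (8.91 and 7.77 against 10.4 and 9.06). NGLY1 rests on an estimated 17 and 28 against 54 and 46 fragments. SHFM1 (SEM1), the small lid subunit, stood at 6542 and 6775 against 5915 and 6229, more than any PSM gene. The transcription factor NFE2L1 averaged 2.16 ± 0.281 and 2.07 ± 0.10 (SD, n = 2 each), and NFE2L2 6.79 ± 0.680 and 7.94 ± 1.03, with overlap in both.

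Of 18 listed symbols for ubiquitin, its activation and its shuttling, 16 were tested, 0 passed (limma over all genes; 0 had an unadjusted p under 0.05), 7 had lower and 9 higher means, and the median was 0.03. The polyubiquitin gene UBB stood at 16462 and 19907 with vehicle and at 15324 and 16066 with A7, without overlap. UFD1L, a cofactor of the unfoldase VCP, stood at 54.4 and 61.6 against 45.8 and 51.6. SQSTM1 (p62), a receptor that carries ubiquitinated proteins to autophagy, stood at 20.8 and 14.3 against 23.6 and 20.2, with overlap. VCP itself stood at 7.32 and 3.83 against 9.05 and 6.66, with overlap.

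**Figure D4:**
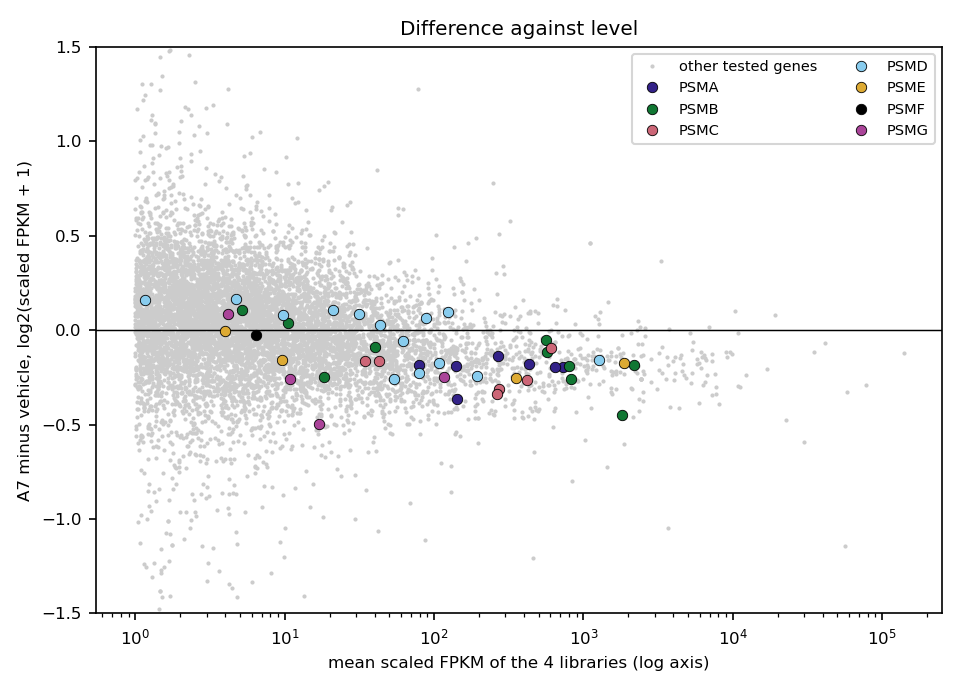
Log2 difference (A7 minus vehicle) against mean scaled FPKM (log axis) for the 46 tested proteasome genes, coloured by class, and the other tested genes in grey; 74 genes beyond 1.5 in either direction are outside the plot. Proteasome genes at high levels lie below 0 as do most abundant genes, a side of 0 that depends on the scaling (with FPKM rescaled to TPM, 32 of the 46 are above 0, though 35 lie below the all-gene median), and those at low levels lie on both sides.

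Level and difference were related among the members as among all genes. Among the 23 members at a mean level of at least 100 scaled FPKM, 22 were lower in the A7 mean (median -0.19), and of all 714 tested genes at that level 598 did, or 83.8% (median -0.16). Of the 23 members under 100, 13 had lower means (median -0.03), beside 47.4% of all 8238 tested genes under 100 (median 0.02). Spearman's rho between level and difference was -0.50 over the 46 members and -0.26 over all 8952 tested genes, across genes that share the same 4 libraries. These counts are on the main scaling. The part of abundance in the members' differences was not tested.

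Levels of subunits that occur in equal numbers in the particle differed widely, and longer transcripts had lower levels. The 14 standard core genes spanned 54.8-fold, from PSMB2 at 40.0 to PSMB1 at 2193 scaled FPKM. Among members whose longest coding transcript is under 1500 nt, the median level was 495 (18 genes), among those of 1500 to under 2500 nt it was 107 (13 genes), and among those of 2500 nt or more 31.4 (15 genes). Spearman's rho between length and level was -0.51 over the 46 members, -0.56 over the 14 core genes and -0.32 over 7848 tested genes with a length, all in the same libraries. FPKM already divide by length, and cDNA was made from total RNA with the SMARTer PCR kit, per the labels' protocols. The part of transcript length in the order of the subunits was not tested, so the order is that of these libraries.

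**Figure D5:**
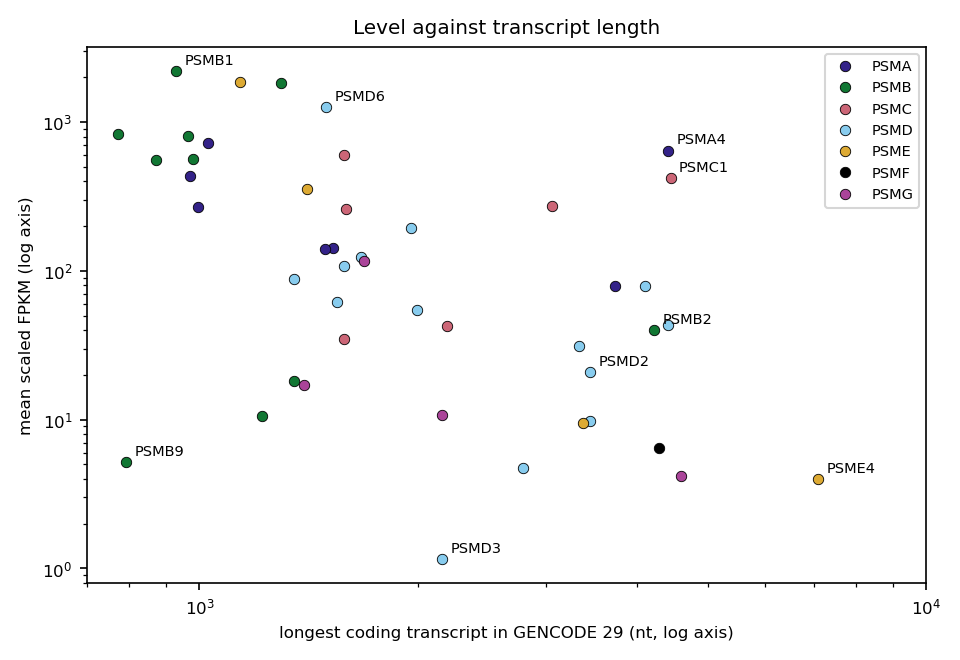
Mean scaled FPKM of the 46 tested proteasome genes (log axis) against the length of the longest coding transcript in GENCODE 29 (log axis), coloured by class. Short transcripts such as PSMB1 reach 2193 and long ones such as PSME4 lie at 4.00, with PSMA4 and PSMC1 high for their annotated length and PSMB9 low.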

How the data were processed

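RNA of 4 LCC9 libraries (2 vehicle, 2 A7) was sequenced. The authors deposited 1 table per library of gene symbols and FPKM, per the file headers. Per the submitters' processing notes, CASAVA 1.8.2, TopHat, Cufflinks 2.2.1 and GRCh37 were used, without stated roles. Neither the annotation nor the handling of multi-mapping reads was given in the sources used here. Of 23619 lines, 14 with a number as symbol were left out. A factor per library, the median over genes of its FPKM relative to the geometric mean, scaled the values. Genes with a mean of 1 FPKM or more were tested with limma 3.58.1 (R 4.3.3, eBayes with trend) on log2(scaled FPKM + 1), two-sided, with Benjamini-Hochberg adjustment over 8952 genes and a threshold of 0.05. This scale understates changes of low genes. The fit has 2 residual and 3.89 prior degrees of freedom. The fit was tested on simulated data with independent noise and added changes far larger than any member's difference. That test does not show how well changes of the members' size would be found. The members and gene lists were chosen with earlier results of these data known.

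Values of each library are given for the catalytic subunits, the PSME, PSMF and PSMG genes, the most and least abundant and the 2 smallest p in PSMA to PSMD, and members under an unadjusted p of 0.05, and up to 3 genes of smallest p per other list, with a few of known role added after their values were seen. Values of a few listed genes are not reported here. Estimated fragments use GENCODE 29 lengths of the longest coding transcript and are rough. Copies were sought with blastn 2.17.0 (identity of 95% or more over 50% or more of a transcript), and exon overlaps with bedtools 2.31.1. By these, 8 members had a copy under another symbol and 19 an exon overlap on the opposite strand. Single libraries, scalings, the pseudocount, the filter, the trend and the replicate number were varied.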

Additional observations from a re-analysis of the deposited data

How the results depend on the processing

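With 2 shallow libraries a group, no difference of a proteasome gene was called, which does not show that there was none. The count of proteasome genes past the threshold was 0 under all 11 alternatives. The count over all genes, 1 higher and 1 lower, was 0 higher with no filter, without the trend and with the replicate block, and 0 to 9 when 1 library was left out. It was 0 lower with a pseudocount of 0.1, with no filter and with the replicate block, 2 lower with TPM and 2 lower after quantile normalization, and 0 to 7 lower when 1 library was left out. The median of the members (-0.17) was 0.051 with TPM (-0.12 once the all-gene shift is taken off) and -0.029 after quantile normalization. Class medians with TPM were 0.036 (PSMA), 0.077 (PSMB), 0.0083 (PSMC), 0.24 (PSMD), 0.048 (PSME) and -0.039 (PSMG, -0.25 on the main scaling). Relative to the all-gene median of 0.17 they were -0.14, -0.098, -0.17, 0.063, -0.13 and -0.21. After quantile normalization they were -0.039 (PSMA), 0.027 (PSMB), -0.084 (PSMC), 0.10 (PSMD), -0.068 (PSME) and -0.18 (PSMG). When 1 library was left out, medians ranged from -0.23 to -0.061 for all members, -0.33 to -0.084 for PSMA, -0.28 to -0.027 for PSMB, -0.37 to -0.091 for PSMC, -0.071 to -0.00030 for PSMD, -0.21 to -0.052 for PSME and -0.47 to -0.080 for PSMG.

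The numbers 1 and 2 are shared by the groups, but nothing says that they mark a shared culture or day. The correlation between the replicate differences of the groups was 0.091 over 8952 genes and 0.51 over the 46 members. With the replicate block the number of members at an unadjusted limma p under 0.05 went from 1 to 7 of 46. Over all 8952 tested genes that number went from 516 to 862. With TPM, after quantile normalization and without the trend it was 0 of the members. With the block 0 members were past the adjusted threshold (smallest limma adjusted p 0.469).

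Dropping the filter, dropping the trend or adding the replicate block cannot change a log2 difference here, so no direction could reverse with them. Of 308 combinations of the 28 named genes with an alternative, these settings included, 276 kept their direction and 32 reversed it. With TPM these were PSMA5 (0.040), PSMA6 (0.031), PSMB1 (0.042), PSMB6 (0.17), PSMB7 (0.11), PSMC3 (0.054), PSMC5 (0.13), PSMD6 (0.067), PSME1 (0.051), PSME3 (0.045), PSME4 (0.17) and PSMF1 (0.16), all still below the all-gene median under TPM, so that none reversed relative to all genes. After quantile normalization they were PSMB1 (0.053), PSMB6 (0.12), PSMB7 (0.072), PSMC5 (0.065) and PSME1 (0.065). With 1 library left out, values crossed 0 for PSMB6 (-0.13 to 0.030), PSMB9 (-0.32 to 0.53), PSMB10 (-0.29 to 0.38), PSMC5 (-0.28 to 0.098), PSMD3 (-0.21 to 0.53), PSME3 (-0.37 to 0.066), PSME4 (-0.10 to 0.10), PSMF1 (-0.085 to 0.041), PSMG1 (-0.52 to 0.0037) and PSMG4 (-0.66 to 0.84). The cause of the changes other than those with TPM was not tested.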
